A study of Homo sapiens with 6 samples.

Results

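GATA transcription factors bind DNA through zinc fingers that read a short GATA-containing sequence, and the human family holds GATA1, GATA2, GATA3, GATA4, GATA5 and GATA6. Their messenger RNAs were read here in SUM-LM1 cells, breast cancer cells of the SUM159 line that were selected for growth in the lung. All probe sets that the array's platform annotation assigns to these 6 genes, 17 of 54613, were taken, and the 6 genes stand among 19775 that the array named. The family was chosen with the higher signal of GATA2 after activin B already known, so its differences between the groups are given as descriptions, with standard errors and without a test.

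GATA1, GATA2 and GATA3 are known from blood formation. GATA1 drives red cell and platelet genes, GATA2 keeps blood stem and progenitor cells and is active in endothelium and mast cells, and GATA3 directs T cell fates and the luminal cells of the breast. GATA4, GATA5 and GATA6 act in heart, gut and other tissues of the endoderm. GATA2 is also a known early target of bone morphogenetic protein (BMP) signals, which pass through SMAD1 and SMAD5 in early embryos and in blood formation.

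The study asked which genes breast cancer cells change within hours of meeting activin B, a homodimer of the inhibin beta B subunit and a ligand of the TGF-beta family. SUM-LM1 cells were seeded at 12500 cells per ml in HuMEC medium with albumin, on plates to which cells do not attach. They received vehicle (albumin in PBS) or 50 ng/ml recombinant human activin B for 6 h, with 3 biological replicates in each group. Both groups were a single cell line, with no genetic change between them. Total RNA of each sample was hybridised to 1 Affymetrix Human Genome U133 Plus 2.0 array, and signals are log2 values after robust multiarray averaging (RMA).

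The 6 array medians lay between 6.69 and 6.70, and correlations between arrays between 0.993 and 0.996. Activin B replicate 3 stood apart on the first principal component, at 21.7 against -10.6 to 5.70 for the other arrays. In both groups the values on this component rose with the replicate number. Of the markers of a mesenchymal-like breast cancer line, the intermediate filament VIM had a vehicle mean of 13.89 and CD44 one of 12.50. The 9 epithelial markers were mixed, with keratins KRT18, KRT14 and KRT8 at 12.09, 11.58 and 9.002 and EPCAM and the cadherin CDH1 at 6.20 and 6.27. Since whole cultures were measured, fewer cells of a type and less RNA per cell cannot be told apart. Probes differ in how strongly they bind, so amounts of different transcripts cannot be ranked by signal, and dim or bright below refers only to the array medians.

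GATA2 was the GATA gene whose signal differed between the groups, and it differed in 1 of its 3 probe sets. In probe set 209710_at, the brightest of the 3, the log2 signals in vehicle were 7.92, 8.001 and 8.03 in replicates 1, 2 and 3. With activin B they were 8.68, 8.76 and 8.50. All 3 activin B arrays lay above all 3 vehicle arrays, with a gap of 0.47 between the nearest arrays of the groups. The mean went from 7.98 ± 0.06 to 8.65 ± 0.13 (SD, n = 3), a log2 difference of 0.67 ± 0.07 (SE) or 1.59-fold. Each of the 9 pairings of an activin B array with a vehicle array gave a higher value with activin B, by 0.47 to 0.84. Activin B replicate 3, the array that stood apart, had the lowest of the 3 activin B values, and without it the log2 difference was 0.74.

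The other GATA2 probe sets did not separate the groups. Probe set 210358_x_at, of a kind that the array's maker marks as prone to cross-hybridise, read 7.30, 7.40 and 7.05 in vehicle and 7.20, 7.42 and 7.22 with activin B. Probe set 207954_at read 7.13, 7.05 and 7.15 in vehicle and 7.14, 6.97 and 7.20 with activin B. In both, the ranges of the groups overlapped, and the log2 differences were 0.03 ± 0.09 and -0.01 ± 0.07 (SE). Their 95% intervals together reached from -0.16 to 0.22, below the difference read by the brightest set. Averaged over all arrays, 210358_x_at read 7.27 and 207954_at 7.11, against 8.32 for 209710_at. Group means of reference genes of tissues unrelated to breast reached 7.22 in SFTPC, and the median over these genes was 6.57. Both flat sets lay near or below the SFTPC level but above that median. They were brighter than 68.2% and 64.9% of all probe sets. Whether they could have read a change in GATA2 was not tested. Averaging the 3 probe sets gave a log2 difference of 0.23 for GATA2, and the averaged gene was no longer called at an adjusted p under 0.05. Of 27 called genes with more than 1 probe set, 19 were called in exactly 1 of them. Of the 15 with 3 or more sets, as GATA2 has, 9 were. These genes, GATA2 included, were picked by a call on the same arrays. The counts therefore do not show whether a difference seen in a single probe set is real.

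**Figure D1:**
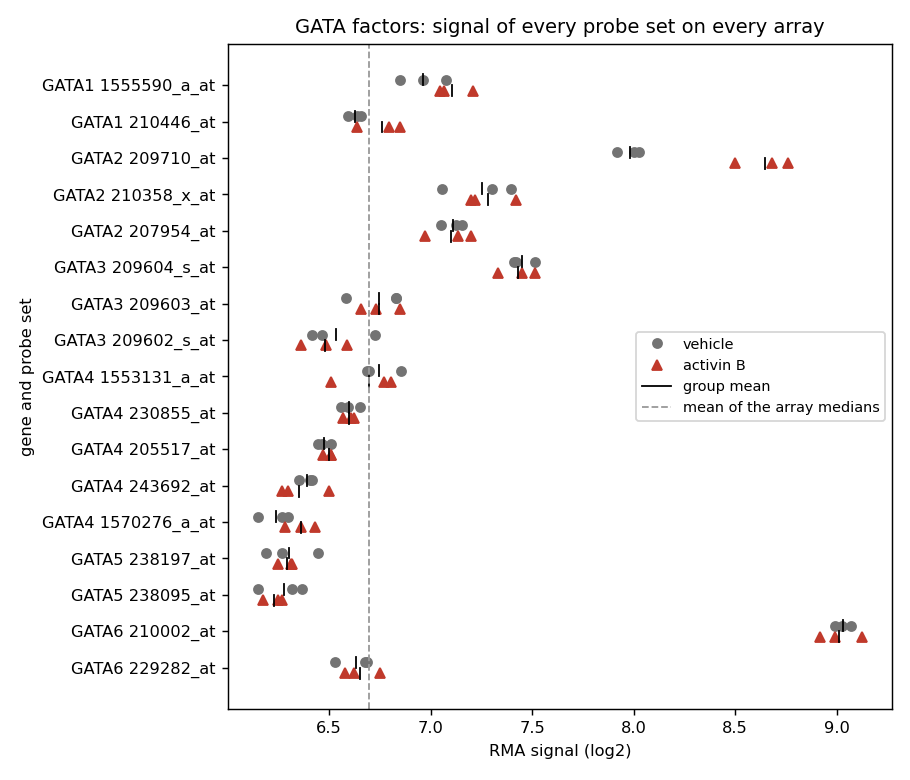
RMA log2 signal (horizontal axis) of each of the 17 GATA probe sets (vertical axis) on each array, with 3 vehicle arrays as grey circles, 3 activin B arrays as red triangles, black bars for group means and a dashed line at the mean of the array medians. Only GATA2 probe set 209710_at has groups that do not overlap, with vehicle at 7.92 to 8.03 and activin B at 8.50 to 8.76.

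Across the family, 1 of 17 probe sets was called by limma at an adjusted p under 0.05, against 0.121% of all probe sets. The call was a higher signal with activin B, against 0.0732% of all probe sets, and no GATA set was called lower, against 0.0476%. The same set passed the looser thresholds of the study (a log2 difference over 0.5 with unadjusted p below 0.05 and adjusted p below 0.25), which 0.0787% of all probe sets did. The groups did not overlap in 1 of the 17, against 9.79% of all probe sets. GATA2 was chosen on this contrast, so nothing is read from these counts. By size, GATA2 had the 9th largest rise of the 19775 genes. The median log2 difference was 0.00 over the 17 GATA probe sets and also 0.00 over all probe sets.

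RefSeq gives GATA2 a pair of alternative transcription starts, and the sequence before each is shown because GATA2 was the member that differed. The window of GATA6 is shown beside them because GATA6 had the brightest of the 17 GATA probe sets. Each window holds the 250 bases before a start in build GRCh38.p14, from RefSeq, read 5′ to 3′ on the strand of the gene. The first GATA2 window is chr3:128493202-128493451 on the minus strand, the second is chr3:128488531-128488780 on the minus strand, and that of GATA6 is chr18:22169339-22169588 on the plus strand. Capitals mark AGAC and its reverse complement GTCT, the short SMAD binding element, and GGCGCC, a GC-rich element that SMAD1 and SMAD5 are known to bind.
GATA2, distal start: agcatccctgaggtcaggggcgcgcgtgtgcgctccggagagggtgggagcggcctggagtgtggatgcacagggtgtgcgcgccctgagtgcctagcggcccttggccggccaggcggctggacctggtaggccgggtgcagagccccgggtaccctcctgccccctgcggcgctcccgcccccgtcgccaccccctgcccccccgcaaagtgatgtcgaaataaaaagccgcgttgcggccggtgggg
GATA2, proximal start: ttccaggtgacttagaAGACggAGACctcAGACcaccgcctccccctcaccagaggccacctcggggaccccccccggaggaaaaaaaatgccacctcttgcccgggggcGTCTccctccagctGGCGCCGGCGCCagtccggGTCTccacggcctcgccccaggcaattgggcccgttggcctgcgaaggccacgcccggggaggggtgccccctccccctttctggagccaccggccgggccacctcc
GATA6: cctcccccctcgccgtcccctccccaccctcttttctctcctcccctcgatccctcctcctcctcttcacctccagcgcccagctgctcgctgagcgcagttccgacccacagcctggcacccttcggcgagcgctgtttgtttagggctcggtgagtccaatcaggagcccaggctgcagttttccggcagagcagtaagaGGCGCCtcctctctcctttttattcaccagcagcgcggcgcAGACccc

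The 2 GATA2 windows differed in these letters. The window before the proximal start held 5 AGAC matches, between 234 and 107 bases before the start, and 2 GGCGCC matches side by side at 126 and 120 bases before it. The distal window held neither. The GATA6 window held 1 match of each. Among all 35116 promoter windows of this length, 77.5% held an AGAC match and 16.4% a GGCGCC match on either strand.

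The table had windows for GATA1, GATA2, GATA3 and GATA6, 10 in all. Most of these were windows of GATA3, and G and C made up 55.6% to 74.8% of the letters of a window. AGAC was found in 7 of the windows and GGCGCC in 5, counts that allow for neither point. None held the motif that GATA proteins read (the letters AGATAA or AGATAG, and likewise the letters TGATAA or TGATAG, on either strand), which 22.3% of all windows did. No motif searched holds the letters of another. A match describes letters in these windows, and the arrays do not show which start was used.

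GATA6, a regulator of endoderm and heart, had a bright probe set whose signal was level. Probe set 210002_at read 9.03, 8.99 and 9.07 in vehicle and 8.92, 8.99 and 9.13 with activin B. The activin B arrays lay on both sides of the vehicle arrays. The means were 9.03 ± 0.04 and 9.01 ± 0.11 (SD, n = 3), a log2 difference of -0.02 ± 0.07 (SE) with a 95% interval from -0.16 to 0.13. The second probe set, 229282_at, read 6.53 to 6.69 in vehicle and 6.58 to 6.75 with activin B, a log2 difference of 0.02 ± 0.07 (SE).

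GATA3, the luminal regulator of the breast, showed no separation in any of its 3 probe sets. Probe set 209604_s_at read 7.41, 7.42 and 7.52 in vehicle and 7.52, 7.33 and 7.45 with activin B. These ranges overlapped, with a log2 difference of -0.02 ± 0.07 (SE) and a 95% interval from -0.16 to 0.13. The other sets, 209603_at and 209602_s_at, had log2 differences of 0.00 ± 0.08 and -0.06 ± 0.08 (SE), and vehicle means of 6.75 and 6.53.

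GATA1, the red cell and platelet factor, had small positive differences in both of its probe sets. Probe set 1555590_a_at read 6.96, 6.85 and 7.07 in vehicle and 7.05, 7.07 and 7.21 with activin B. Probe set 210446_at read 6.64, 6.66 and 6.59 in vehicle and 6.85, 6.79 and 6.64 with activin B. In each, 1 vehicle array reached the range of the activin B arrays. The log2 differences were 0.14 ± 0.07 and 0.13 ± 0.07 (SE), with 95% intervals that began at -0.01 and ended at 0.30 and 0.28. Of all probe sets, 93.5% and 91.8% differed by less in absolute size.

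GATA4, a factor of the heart, was read by 5 probe sets and GATA5, of heart and gut, by 2. The brightest GATA4 set, 1553131_a_at, read 6.70, 6.69 and 6.85 in vehicle and 6.80, 6.77 and 6.51 with activin B. GATA5 set 238197_at read 6.45, 6.19 and 6.27 in vehicle and 6.25, 6.31 and 6.32 with activin B. The groups overlapped in all 7 sets. The log2 differences ran from -0.05 to 0.12, and the highest belonged to GATA4 set 1570276_a_at, at 0.12 ± 0.07 (SE) from a dim vehicle mean of 6.24.

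Outside GATA2, none of 14 probe sets was called by limma at an adjusted p under 0.05 or had an unadjusted p under 0.05. Of all probe sets 0.121% were called, and of all genes 5.89% had an unadjusted p under 0.05. Of these 14, 5 differences were above 0 and 9 below, between -0.06 and 0.14. Their 95% intervals all lay between -0.24 and 0.30 on the log2 scale. Many GATA signals were dim. The means of 8 of the 17 sets lay below the median over all probe sets. RMA compresses differences between such signals, so a change in these transcripts could be missed, and a dim signal does not show that a transcript was absent.

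**Figure D2:**
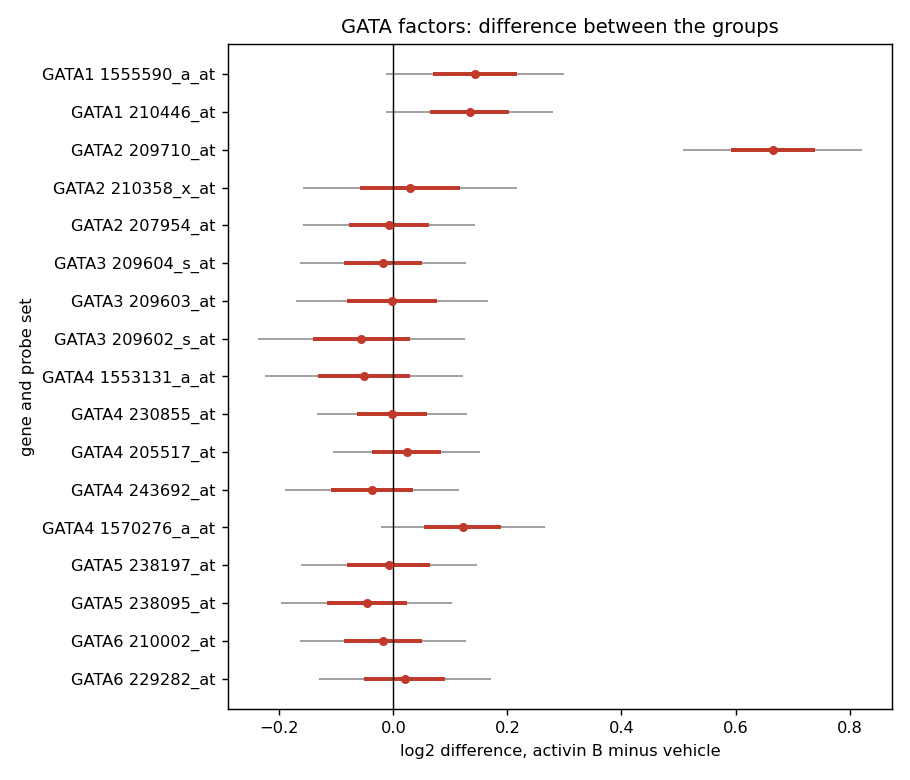
Log2 difference, activin B minus vehicle (horizontal axis), for each of the 17 GATA probe sets (vertical axis), with the standard error as a thick red bar and the 95% interval of the limma model as a thin grey line. GATA2 probe set 209710_at lies at 0.67 and the other 16 lie between -0.06 and 0.14.

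Antisense and divergent transcripts of the GATA loci were read by 4 probe sets, and none was called by limma or had an unadjusted p under 0.05. The shares were 0.121% called over all probe sets and 5.89% with such a p over all genes. GATA2-AS1, the antisense neighbor of GATA2, read 7.21, 7.05 and 7.32 in vehicle and 7.33, 7.34 and 7.03 with activin B, a log2 difference of 0.04 ± 0.09 (SE). GATA6-AS1 and the brighter set of GATA3-AS1 had log2 differences of 0.00 ± 0.06 and -0.02 ± 0.07 (SE).

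Read by their brightest probe sets, the nearest protein coding genes along the chromosome did not share the difference of GATA2. On one side lie DNAJB8, a heat shock protein cofactor, and EEFSEC, an elongation factor for selenocysteine, with log2 differences of -0.13 ± 0.06 and 0.00 ± 0.07 (SE). On the other lie RPN1, a subunit of the oligosaccharyltransferase, and RAB7A, a small GTPase of late endosomes, at -0.15 ± 0.07 and -0.02 ± 0.08 (SE). The other RAB7A probe sets ran from -0.13 to 0.28. Those at 0.28 and 0.17 were higher with activin B without overlap between the groups, as in 9.79% of all probe sets in either direction. Of 21 measured neighbors of the 6 GATA genes, 2 on each side of a gene, none was called by limma and 3 had an unadjusted p under 0.05. Over all genes, 0.192% were called and 5.89% had such a p. The log2 differences of the neighbors ran from -0.15 to 0.14.

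The genes whose signals most resembled GATA2 over the 6 arrays were led by ERRFI1 and DLX1. Likeness was measured by Pearson's r with probe set 209710_at, over 226 genes whose SD across the arrays was at least 0.2. The 8 highest were ERRFI1, an inhibitor of the EGF receptor, the homeobox gene DLX1, the receptor-regulated SMAD9, the inhibitory SMAD7, the basic helix-loop-helix factor ATOH8, ID2, which blocks such factors from binding DNA, RHOBTB3 and DMRTA2, with r between 0.97 and 0.99. The 6 points fall into the treatment groups, so these values mainly reflect the difference between groups and carry no p.

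Within the groups the resemblance was uneven. After group means were subtracted, r with GATA2 was 0.94 for ERRFI1, 0.92 for SMAD9 and 0.89 for DLX1, and between 0.42 and 0.63 for the other 5. ERRFI1 read 9.29, 9.30 and 9.31 in vehicle and 9.92, 10.04 and 9.72 with activin B. As for GATA2, activin B replicate 2 was the highest array and activin B replicate 3 the lowest of its group. When any 1 array was left out, 5 to 7 of the 8 genes stayed among the first 8, and all 8 among the first 20. The genes were picked by r on the same arrays, and the arrays that remained always held both groups. Neither these counts nor the values within groups are independent support.

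In size, GATA2 lay among these genes. The log2 differences were 0.59 ± 0.08 for ERRFI1, 0.51 ± 0.06 for DLX1, 0.77 ± 0.07 for SMAD9 and 0.63 ± 0.06 for SMAD7 (SE). ATOH8, RHOBTB3 and DMRTA2 had 0.58 ± 0.07, 0.72 ± 0.08 and 0.49 ± 0.07 (SE). ID2 was larger, at 1.47 ± 0.09 (SE). Their promoter windows, 10 in number, held AGAC in 8, GGCGCC in 2 and a GATA motif in 1, the window of ID2.

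**Figure D3:**
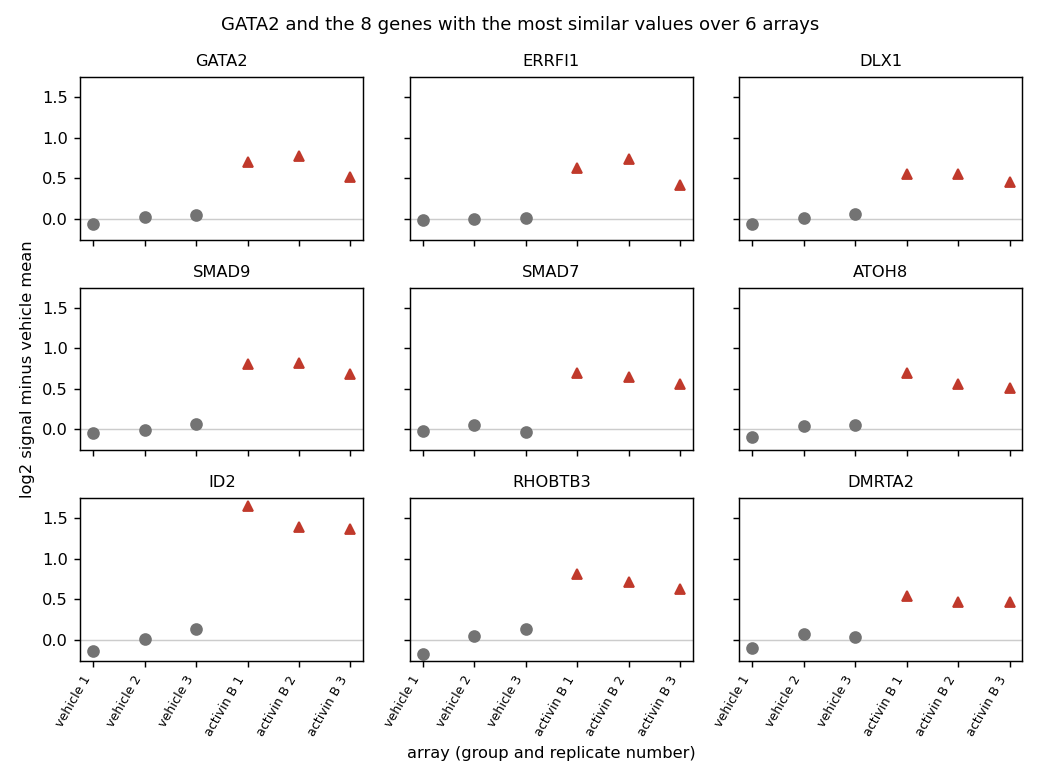
Log2 signal minus the mean of the 3 vehicle arrays (vertical axis) on each array (horizontal axis) for GATA2 probe set 209710_at and the 8 genes most like it, vehicle as grey circles and activin B as red triangles. All 9 genes have the 3 activin B arrays above the 3 vehicle arrays, with ID2 at a log2 difference of 1.47 and the others between 0.49 and 0.77.

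Proteins that work with GATA factors, and genes known as their targets, were counted next, each gene by its brightest probe set. Of 114 measured genes in 8 lists, none was called by limma at an adjusted p under 0.05, against 0.192% of all genes (0.101% higher and 0.091% lower), and 6 had an unadjusted p under 0.05, against 5.89% of all genes. Their median log2 difference was 0.00, as over all genes. The lists were written with earlier results of these arrays known.

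GATA-type zinc finger proteins outside the family numbered 9, and none was called or had an unadjusted p under 0.05. Their median log2 difference was -0.06. ZGLP1, a germ cell zinc finger protein, had a log2 difference of -0.14 ± 0.07, MTA3 of the NuRD complex -0.09 ± 0.07, and TRPS1, a repressor expressed in breast, 0.09 ± 0.07 (SE; adjusted p = 0.959, 0.995 and 0.995 by limma).

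Partner factors numbered 19, with a median of 0.01, none called and 1 with an unadjusted p under 0.05. FLI1, an ETS factor of blood and endothelium, went from 6.40 ± 0.11 to 6.58 ± 0.11 (SD, n = 3), a log2 difference of 0.18 ± 0.08 (SE; adjusted p = 0.909 by limma). Its other 5 probe sets lay between -0.03 and 0.06, and their mean with it was 0.04. LMO2, which bridges GATA factors to basic helix-loop-helix proteins, went from 8.29 ± 0.04 to 8.41 ± 0.03 (SD, n = 3; log2 difference 0.12 ± 0.06, SE; adjusted p = 0.959 by limma). Its arrays did not overlap between the groups, as in 9.79% of all probe sets. The second LMO2 probe set overlapped and went the other way, at -0.07. TBX5, a heart factor, had 0.10 ± 0.06 (SE; adjusted p = 0.988 by limma), and its other probe sets lay between -0.10 and 0.00. The FOG cofactors ZFPM1 and ZFPM2, which bind the GATA zinc finger directly, had 0.01 and -0.05; this pair was named after its values were seen.

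Enzymes known to modify or degrade GATA proteins numbered 11, with a median of 0.03, none called and 1 with an unadjusted p under 0.05. FBXW7, the substrate receptor of a ubiquitin ligase, was lower in all 3 activin B arrays, from 9.37 ± 0.11 to 9.12 ± 0.11 (SD, n = 3). Its log2 difference of -0.25 ± 0.07 (SE) did not pass (adjusted p = 0.592 by limma), and it was the largest in size among the 114 linked genes. The other FBXW7 probe sets gave -0.15, -0.04 and 0.02, with groups that overlapped. Groups without overlap, in either direction, were found in 9.79% of all probe sets. USP21, a deubiquitinase, and the acetyltransferase gene EP300 had 0.10 ± 0.07 and 0.04 ± 0.07 (SE; adjusted p = 0.992 and 0.999 by limma). The direction of USP21 turned with the probe set, since its other sets gave -0.07 and -0.11.

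Known GATA2 targets of blood, mast cells and vessels numbered 18, with a median of -0.01, none called and 1 with an unadjusted p under 0.05. PECAM1, an adhesion molecule of endothelium, had the smallest p and a negative difference, from 7.84 ± 0.12 to 7.65 ± 0.07 (SD, n = 3; log2 difference -0.19 ± 0.07, SE; adjusted p = 0.874 by limma). Its other 4 probe sets ran from -0.34 to 0.08. EMCN and KDR, both endothelial, had -0.14 ± 0.07 and -0.15 ± 0.07 (SE; adjusted p = 0.947 and 0.951 by limma). The means of 12 of the 18 lay under the median over all probe sets.

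Known GATA1 targets of red cells and platelets numbered 13, with a median of 0.01, none called and 2 with an unadjusted p under 0.05. The platelet glycoprotein GP9 had 0.19 ± 0.06 and the transcription factor NFE2 -0.20 ± 0.07 (SE; adjusted p = 0.721 and 0.795 by limma). SLC4A1, the anion exchanger of red cells, had 0.10 ± 0.07 (SE; adjusted p = 0.995 by limma). Its second probe set went the other way, at -0.15, without overlap between the groups, as in 9.79% of all probe sets.

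Luminal genes expressed together with GATA3 numbered 17, with a median of -0.02, none called and none with an unadjusted p under 0.05. The keratin gene KRT18 was bright, at 12.09 ± 0.01 in vehicle and 11.99 ± 0.07 with activin B (SD, n = 3; adjusted p = 0.988 by limma). MUC1 and TFF1, markers of luminal cells, had -0.13 ± 0.07 and -0.09 ± 0.07 (SE; adjusted p = 0.982 and 0.995 by limma). The pioneer factor FOXA1 and the estrogen receptor gene ESR1, named after their values were seen, had vehicle means of 6.55 and 6.81, near the array medians.

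Heart and endoderm targets of GATA4, GATA5 and GATA6 numbered 15, with a median of -0.02, none called and 1 with an unadjusted p under 0.05. SOX7, an endoderm and endothelial factor, went from 9.60 ± 0.05 to 9.45 ± 0.06 (SD, n = 3; log2 difference -0.15 ± 0.06, SE; adjusted p = 0.925 by limma). The second SOX7 set was also lower, at -0.12. Neither SOX7 set overlapped between the groups, as in 9.79% of all probe sets. DAB2 and TTR, both made in endoderm, had -0.10 ± 0.07 and -0.09 ± 0.07 (SE; adjusted p = 0.995 by limma for both). Regulators of trophoblast, where GATA2 and GATA3 act together with TFAP2 factors, numbered 15, with a median of 0.01 and none called. KLF5, MSX2 and TEAD4 had 0.16 ± 0.08, -0.15 ± 0.07 and 0.10 ± 0.08 (SE; adjusted p = 0.957, 0.959 and 0.995 by limma). The other MSX2 sets went the other way, at 0.14 and 0.12, as did the other TEAD4 set, at -0.13. The other KLF5 set gave 0.15.

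**Figure D4:**
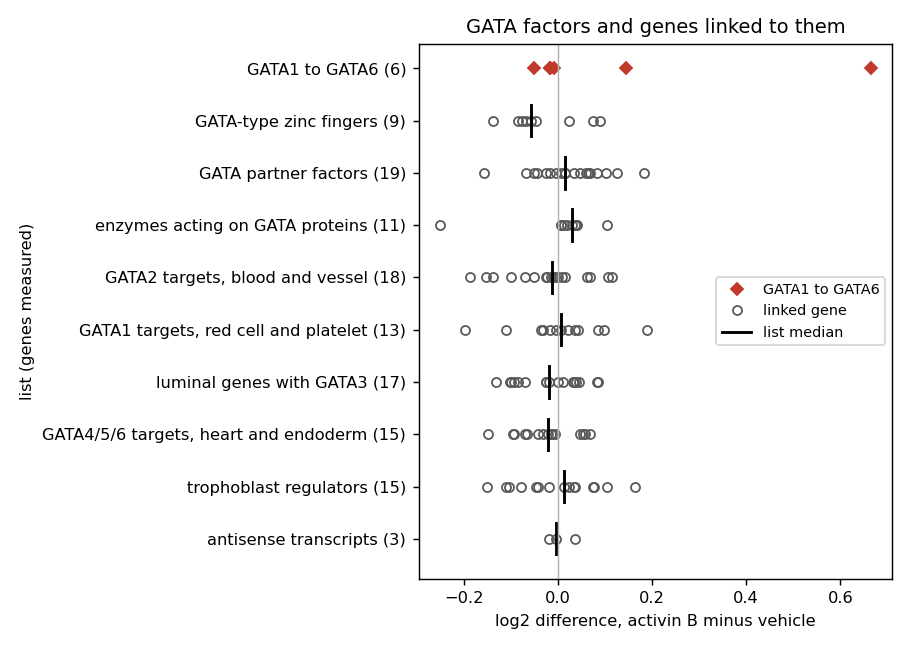
Log2 difference, activin B minus vehicle (horizontal axis), of the 6 GATA genes (red diamonds, brightest probe set of each) and of the genes linked to them (open circles) in 9 lists, antisense transcripts included (vertical axis, number of measured genes after each name), with black bars at list medians. GATA2 lies at 0.67 and the linked genes between -0.25 and 0.19.

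GATA2 is also made by endothelium, mast cells and blood progenitors, so markers of such cells were read beside it. The summed linear signal of 10 endothelial markers was 1025 to 1085 in vehicle and 962 to 1018 with activin B, lower where GATA2 was higher. That of 5 mast cell markers was 452 to 461 and 447 to 460. That of 8 leukocyte markers was 736 to 768 in vehicle and 771 to 852 with activin B, higher where GATA2 was higher. The B cell gene CD79A contributed most, at 6.98 ± 0.05 and 7.39 ± 0.16 (SD, n = 3; log2 difference 0.41 ± 0.08, SE; adjusted p = 0.0698 by limma), together with CD3E at 0.20 ± 0.07. The cultures were a single breast cancer line. Group means of reference genes of tissues unrelated to breast reached 7.22 in SFTPC, and the median over these genes was 6.57. The part of these markers in the GATA2 result was not tested. Among the endothelial markers PECAM1 had the highest mean, at 7.84 in vehicle and 7.65 with activin B, and group means of the other 9 lay between 6.08, of the cadherin CDH5, and 6.75. Group means of the 7 leukocyte markers other than CD79A lay between 6.22, of the antigen PTPRC in vehicle, and 6.95. Those of the mast cell markers lay between 6.32 and 6.81. None of the 23 markers of these 3 lists was called by limma, and 3 had an unadjusted p under 0.05 in all. Over all genes, 0.192% were called and 5.89% had such a p.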

How the data were processed

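Per the labels and the methods of the study, the authors hybridised biotin-labeled RNA of 6 samples to Affymetrix arrays and normalized the scanner files by RMA in Chipster, which subtracts background, gives all arrays 1 distribution and combines the probes of a set. The deposited values are on a log2 scale. Such scaling removes shifts shared by most transcripts. No scanner file was analysed here.

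Groups and replicate numbers came from sample titles. Without the array's 62 control sets the table held 54613, and 41091 of these carried 1 gene symbol. No gene was named from the 1801 sets with several symbols. For each gene the brightest set on average stood for the gene. Groups were compared with limma 3.58.1 in R 4.3.3 (linear model, empirical Bayes), the kind of test the study names, with Benjamini-Hochberg adjustment over all probe sets. The limma comparison was tried on simulated arrays first, where 29.2% of log2 changes of 0.25 and 99.2% of those of 0.5 were recovered. Changes near 0.25 could thus be missed. The other steps were not simulated. With 3 arrays a group, precision is limited, and p values reflect only how these cultures varied.

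The members and lists were chosen with earlier results of these data known. Named were all GATA probe sets, up to 3 genes of each list with the smallest p, the neighbors of GATA2 and the 8 genes most like GATA2. List entries without a probe set of their own symbol were not analysed here. Figures were drawn with matplotlib 3.10.9.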

Additional observations from a re-analysis of the deposited data

How the results depend on the processing

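The log2 difference of GATA2 probe set 209710_at was 0.61 to 0.74 when arrays were left out and 0.70 with array weights. Its groups do not overlap, so leaving out an array could not turn its direction, and the choice of GATA2 on this contrast makes none of these values independent support. The mean over all probe sets gave 0.23 for GATA2, since it averages in sets near 0, and the averaged gene was not called. Outside GATA2, the GATA probe sets lay between -0.12 and 0.20, and signs near 0 changed.

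For 31 named linked genes and neighbors, none was called under any alternative (lowest adjusted p = 0.109 by limma). Directions of small differences turned with the probe set. The set with the largest SD gave -0.05 for TRPS1, -0.15 for SLC4A1 and 0.28 for RAB7A, and the mean over sets 0.04 for MSX2 and -0.01 for TEAD4. Where an array was left out, the brightest set was picked again. USP21 then ran from -0.10 to 0.15 and FLI1 from 0.01 to 0.24. With the set held fixed, an alternative chosen after seeing the data, they ran from 0.07 to 0.15 and from 0.12 to 0.24.

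Over the whole table, 66 probe sets were called, 32 to 63 when an array was left out (32 without vehicle replicate 2, 38 without activin B replicate 2 and 43 without vehicle replicate 3), and 43 at the looser thresholds of the study. With the replicate number as a block, 97 were called. Deviations of samples of the same number correlated at 0.16, 0.04 and 0.19, and every sample correlated best with its own number. The first principal component also rose with the number in both groups. The titles state no pairing, so the main fit has no block, and its standard errors hold any variation shared by number. Many GATA signals were near the array median, where RMA limits what can be seen.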
